A study of Mus musculus with 12 samples.

Results

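The genes described here are *Slc17a6*, *Tshz2*, *Nts*, *Ly6g6e*, *Cntn6*, *Fn1* and *Rxfp1*, the last 5 of which are used as markers of the subiculum. They were taken by symbol, as every probe annotated to 1 of the 7 genes, which gave 17 of the 45281 probes on the array. *Slc17a6* and *Tshz2* were among the genes selected by the study on these same arrays, and the subiculum genes were taken up with results of these groups known. The differences between groups are therefore given as a description, with standard errors and no test. After the filter on detection, 10 of the 17 probes and 6 of the 7 genes could be analysed, among 19288 probes and 10835 genes in all.

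Hippocampal RNA came from 12 male C57BL/6J mice aged 12 weeks, hybridised to 12 Illumina bead arrays. The EtOH group was 6 mice whose mothers drank ethanol between 0.5 and 8.5 days post-coitum, and the Control group was 6 mice whose mothers did not. No gene was altered in either group, and the exposure ended before birth. The arrays lay on 2 chips with 3 mice of each group on each chip. The litter of each mouse is not given in the sources used here, so the spread between mice may include spread between litters. The labelled tissue was set beside markers fixed with the gene lists. Markers of CA1 pyramidal neurons (6 of 6 genes), of CA2 and CA3 pyramidal neurons (5 of 6 genes on the array) and of dentate granule neurons (4 of 6 genes on the array) passed the filter. Markers of thalamus (9 of 12 genes), habenula (5 of 6 genes) and neocortex and retrosplenial cortex (9 of 11 genes) passed as well. Detection alone therefore does not tell hippocampus from neighbouring tissue. Arrays had a median signal of 94.7 to 127.5 units and 18644 to 20268 detected probes, and any 2 arrays correlated at 0.984 to 0.993.

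Vesicular glutamate transporters load glutamate into synaptic vesicles. In the adult forebrain most cortical and hippocampal pyramidal neurons use VGLUT1, encoded by *Slc17a7*, while VGLUT2, encoded by *Slc17a6*, prevails in thalamus and other subcortical nuclei and also occurs in the subiculum and retrosplenial cortex. The subiculum lies between CA1 and the neighbouring cortex and carries the main output of the hippocampus. *Tshz2* encodes a teashirt zinc finger transcription factor. *Nts* encodes the precursor of the neuropeptide neurotensin, *Ly6g6e* a small Ly6 domain protein that modulates nicotinic receptors, *Cntn6* an adhesion molecule of the contactin family, *Fn1* the matrix protein fibronectin and *Rxfp1* the receptor for relaxin. In bulk tissue, fewer cells of a type and less RNA per cell cannot be told apart.

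*Slc17a6* was the gene the study followed up, and *Tshz2* was the gene whose signal followed that of *Slc17a6* most closely across the mice. The 250 bases before an annotated start of each gene are therefore shown, from RefSeq on GRCm38.p6, 5′ to 3′ on the gene's strand, with each CpG dinucleotide in capitals. Both genes lie on the plus strand, at chr7:51621580-51621829 and chr2:169632259-169632508. RefSeq gives *Slc17a6* another start downstream. The study reported more CpGs in the promoter region it sequenced than the window shown holds, so that region does not lie wholly within it.
Slc17a6: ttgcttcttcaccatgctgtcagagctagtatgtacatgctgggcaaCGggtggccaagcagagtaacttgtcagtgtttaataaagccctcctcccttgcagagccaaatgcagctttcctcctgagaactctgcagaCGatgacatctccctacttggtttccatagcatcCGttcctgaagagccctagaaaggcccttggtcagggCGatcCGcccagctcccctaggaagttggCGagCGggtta
Tshz2: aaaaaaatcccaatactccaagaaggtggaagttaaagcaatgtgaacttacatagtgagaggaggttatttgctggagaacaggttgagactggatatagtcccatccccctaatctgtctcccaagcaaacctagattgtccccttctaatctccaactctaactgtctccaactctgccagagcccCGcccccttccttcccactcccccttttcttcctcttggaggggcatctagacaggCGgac

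The *Slc17a6* window shown held 7 CpG dinucleotides and 53.2% G and C bases, and 46.3% of the 32851 promoter windows of the same length had at least as many CpGs. The window before the downstream start of *Slc17a6*, at chr7:51624387-51624636, held 3 CpGs, 41.2% G and C bases and no GC box (GGGCGG). The *Tshz2* window held 2 CpGs, and 81.2% of windows had at least as many. Both windows shown held 1 match to the GC box, counted on both strands, as did 32.7% of all windows. Neither held the TATA box TATAAA (12.4% of all windows) or the cAMP response element TGACGTCA (1.55% of all windows). The windows of *Nts* and *Cntn6* held 2 and 3 CpGs and no GC box. These matches describe letters only.

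*Slc17a6* was detected in all 12 hippocampi at both of its probes and tended to be higher in EtOH mice. At ILMN_2922321 the normalized log2 signal was 10.77 at the lowest, 11.16 at the median and 11.58 at the highest in EtOH mice, against 9.43, 10.69 and 10.86 in Control mice. In EtOH mice 5 of 6 lay above every Control mouse, and the remaining EtOH mouse, replicate 1, lay above the Control median. The lowest value was that of Control replicate 4, at a distance from the other Control mice, which started at 10.64. The mean was 11.19 ± 0.30 in EtOH mice and 10.52 ± 0.54 in Control mice (SD, n = 6 each), a log2 fold change of 0.67 (standard error 0.22), or 1.59-fold. At ILMN_2773047 the lowest, median and highest log2 signals were 10.53, 11.00 and 11.31 in EtOH mice, against 9.38, 10.45 and 10.62 in Control mice, and the log2 fold change was also 0.67 (standard error 0.20). The 2 probes ranked the mice almost alike (r = 0.989 after removal of the group means, over 12 mice). The study's supplementary list of genes shows ILMN_2922321 in the row of *Tshz2*, whereas the platform annotation used here gives it to *Slc17a6*.

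Control replicate 4 set much of the size of this difference and nearly all of the spread of the Control group. Without it the log2 fold changes were 0.45 (standard error 0.13) and 0.49 (standard error 0.14) at the 2 probes. At ILMN_2922321 the SD was 0.30 in EtOH mice, and in Control mice it was 0.0956 over the other 5 and 0.54 over all 6. On chip 1, which does not hold that mouse, the log2 fold changes were 0.44 and 0.49. On chip 2 they were 0.91 and 0.85.

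*Tshz2* followed a similar order of mice. At ILMN_1256408 the log2 signal was 9.13 at the lowest, 9.44 at the median and 9.91 at the highest in EtOH mice, against 7.08, 9.09 and 9.27 in Control mice. In EtOH mice 4 of 6 lay above every Control mouse, and the groups overlapped in the other 2 (replicates 1 and 4). Control replicate 4 was again lowest, with the next Control mouse at 8.95. The log2 fold change was 0.72 (standard error 0.31), and 0.38 (standard error 0.14) without that mouse. The other probes past the filter, ILMN_1243934 and ILMN_1256722, had values of 0.54 (standard error 0.27) and 0.52 (standard error 0.28), which came to 0.28 and 0.25 without Control replicate 4. On chip 1 alone the 3 probes stood at 0.34, 0.16 and 0.05, and on chip 2 alone at 1.10, 0.92 and 1.00. The remaining probe, ILMN_1249039, was detected in 3 EtOH mice and 1 Control mouse and was not analysed.

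**Figure D1:**
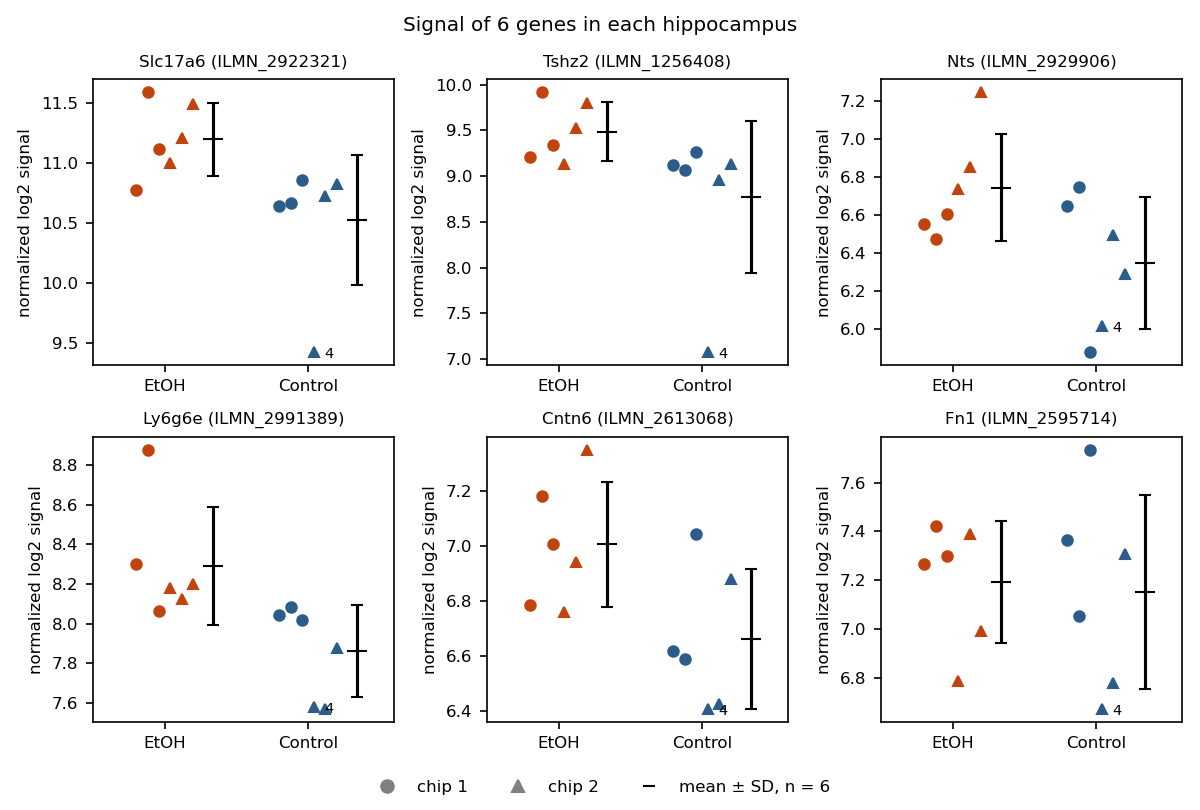
Normalized log2 signal of 6 genes in each of the 12 hippocampi, at the brightest probe of each gene, with EtOH mice left and Control mice right in each panel. Circles are chip 1, triangles chip 2, bars the mean ± SD (n = 6), and the label 4 marks Control replicate 4, which lies at 9.43 for *Slc17a6* and 7.08 for *Tshz2* and is the lowest mouse for both.

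The neuropeptide gene *Nts* was measured by 1 of its 2 probes, ILMN_2929906, which was detected in all mice. Its log2 signal was 6.47 at the lowest, 6.67 at the median and 7.25 at the highest in EtOH mice, against 5.88, 6.39 and 6.75 in Control mice. The EtOH mice all lay above the Control median, but only 2 of 6 lay above every Control mouse. The log2 fold change was 0.40 (standard error 0.16), with 0.12 on chip 1 and 0.68 on chip 2. Its lowest mouse was Control replicate 3, which had the highest *Slc17a6* of the Control group. The other probe was detected in 0 mice.

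*Ly6g6e* differed between its 2 probes. At ILMN_2991389 the log2 signal was 8.07 at the lowest, 8.19 at the median and 8.88 at the highest in EtOH mice, against 7.57, 7.95 and 8.08 in Control mice. As for *Slc17a6*, 5 of 6 EtOH mice lay above every Control mouse, and only replicate 3 overlapped. EtOH replicate 2 stood apart at the top, with the next EtOH mouse at 8.30. The log2 fold change was 0.43 (standard error 0.14), with 0.37 and 0.49 on chips 1 and 2, and 0.31 without EtOH replicate 2. At the dimmer probe, ILMN_1215409, it was 0.24 (standard error 0.19), and 0.10 without the same mouse. The 2 probes correlated less closely than those of the preceding genes (r = 0.613 over 12 mice after removal of the group means).

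*Cntn6* was measured by a single probe, ILMN_2613068. The log2 signal was 6.76 at the lowest, 6.98 at the median and 7.35 at the highest in EtOH mice, against 6.41, 6.61 and 7.04 in Control mice. The EtOH mice all lay above the Control median, 2 of 6 lay above every Control mouse, and 4 of 6 Control mice lay below every EtOH mouse. The log2 fold change was 0.34 (standard error 0.13), with 0.24 and 0.45 on chips 1 and 2 and 0.29 without Control replicate 4.

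*Fn1* showed no such separation. At ILMN_2595714, the only 1 of its 4 probes past the filter, the log2 signal was 6.78 at the lowest, 7.28 at the median and 7.42 at the highest in EtOH mice, against 6.67, 7.18 and 7.74 in Control mice. The EtOH mice lay wholly within the range of the Control mice. The log2 fold change was 0.04 (standard error 0.17), with −0.05 and 0.14 on chips 1 and 2, and its sign turned without Control replicate 4 (−0.06) and with median scaling (−0.02). The other 3 probes were detected in 0 mice.

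*Rxfp1* could not be compared. Its brighter probe, ILMN_2685751, was detected in 3 EtOH mice and 1 Control mouse, and the other, ILMN_1223585, in 0 mice. The log2 signal of the brighter probe was 4.85 at the lowest, 5.26 at the median and 5.78 at the highest in EtOH mice, against 4.71, 4.97 and 5.36 in Control mice, values at the level of the background.

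**Figure D2:**
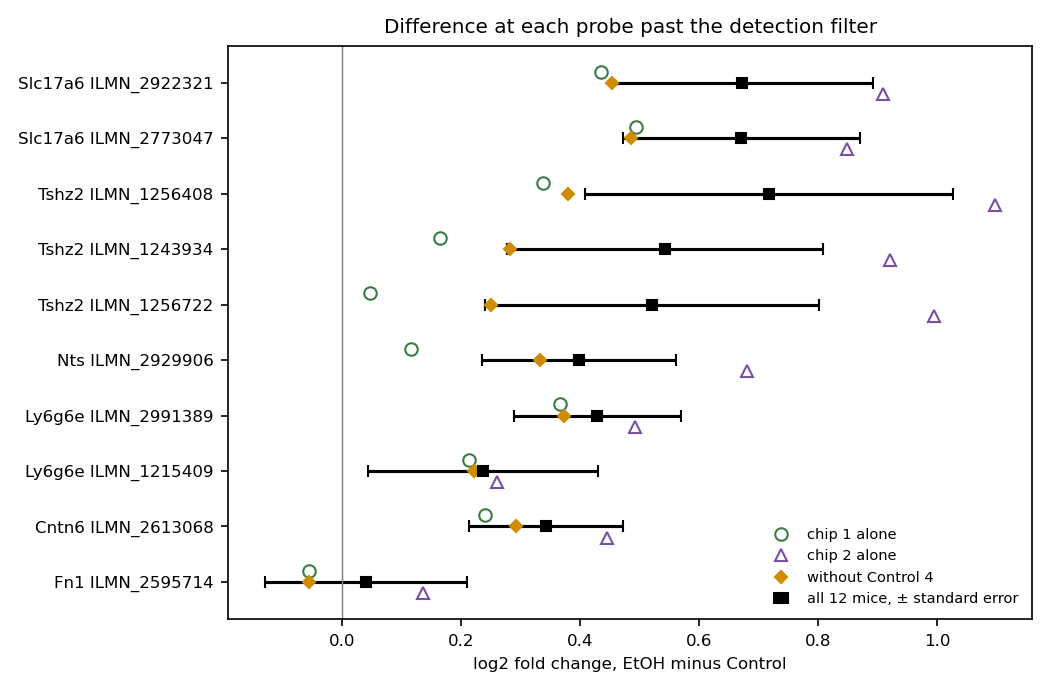
Log2 fold change, EtOH minus Control, at each of the 10 probes past the detection filter. Black squares are all 12 mice with their standard error, open circles chip 1 alone, open triangles chip 2 alone and diamonds the 11 mice without Control replicate 4. The 3 *Tshz2* probes run between 0.05 and 0.34 on chip 1 and between 0.92 and 1.10 on chip 2.

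Across all probes, limma with Benjamini-Hochberg adjustment called 0 of 19288 probes between EtOH and Control mice at an adjusted p under 0.05 (0%), and the smallest adjusted p was 0.266. Without adjustment, 648 probes (3.36%) had a higher and 594 (3.08%) a lower signal in EtOH mice at a limma p of 0.05 or less. With median scaling in place of quantile normalization, 147 were higher and 637 lower. The median log2 fold change over 10835 genes was 0.01. Chip 2 differed from chip 1 at 86 probes (0.446%) at an adjusted p under 0.05, with group in the model. None of the 10 probes described above was among them. The smallest adjusted p for a chip difference was 0.237 for *Ly6g6e*, at −0.31 (standard error 0.12, chip 2 minus chip 1), followed by 0.245 for *Fn1*, at −0.37 (standard error 0.14). The difference between EtOH and Control mice was also tested for a change between chips. This interaction passed an adjusted p of 0.05 at 0 of 19288 probes (0%) in limma, and at 1209 at an unadjusted p under 0.05. For the 10 probes its adjusted p was at least 0.831, and the largest estimate was 0.95 (standard error 0.54) at ILMN_1256722 of *Tshz2*. The larger values on chip 2 were not distinguishable from those on chip 1 at this number of mice.

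The spread between mice of the same group was wide for *Slc17a6* and *Tshz2*. The within-group SD of *Slc17a6* was 0.44 at ILMN_2922321, where the median was 0.13 over the 760 probes whose mean signal lay within 0.25 log2 units, and 99.9% of those probes varied less. For *Tshz2* at ILMN_1256408 the SD was 0.63, against a median of 0.15 over 1288 probes of like signal. The SD of the EtOH group was 0.30 for *Slc17a6* and 0.32 for *Tshz2*. The SD of the Control group was 0.54 and 0.83, and without Control replicate 4 it was 0.0956 and 0.114. *Fn1* (94.2%), *Ly6g6e* (92.0% at ILMN_2991389) and *Nts* (83.5%) also varied more than most probes of their signal. *Cntn6* was near the middle (58.5%).

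Whether these genes varied together was asked after removal of the group means, so that a difference between group means alone could not produce a correlation. Control replicate 4, which set much of the differences of *Slc17a6* and *Tshz2*, stayed in the centred values. Their r is therefore not independent of how these genes were chosen. Of 5 relations with *Slc17a6* computed over 12 mice, that of *Tshz2* was closest (Pearson r = 0.973, adjusted permutation p = 0.00145, and Spearman rho = 0.937, adjusted permutation p = 0.00105). It was 0.940 without the 2 mice farthest from the median of *Slc17a6*, Control replicate 4 and EtOH replicate 1 (adjusted permutation p = 0.0123 over 10 mice). It was 0.947 within EtOH mice and 0.991 within Control mice (n = 6 each), and 0.967 and 0.998 on chips 1 and 2. The values within Control mice and on chip 2 include Control replicate 4, which lay far below the other Control mice for both genes. Over the other 5 Control mice the SD was only 0.0956 for *Slc17a6* and 0.114 for *Tshz2*, and r was not computed over these alone. *Tshz2* ranked first of 10834 genes in its correlation with *Slc17a6*, and second without Control replicate 4 (r = 0.917 over 11 mice).

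*Cntn6* came next, at r = 0.676 (permutation p = 0.0172, adjusted p = 0.0429) and rho = 0.769 (permutation p = 0.00443, adjusted p = 0.0111). Its r was 0.769 without the same 2 mice (adjusted permutation p = 0.0173), 0.889 within EtOH mice and 0.594 within Control mice, and 0.802 and 0.589 on chips 1 and 2. The call held in only 4 of the 12 analyses that each left out 1 mouse, with adjusted permutation p between 0.0060 and 0.155. *Cntn6* ranked 131 of 10834 genes, and 55 without Control replicate 4.

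The remaining relations did not pass the threshold. *Fn1* had r = 0.533 (permutation p = 0.129, adjusted p = 0.162) and rho = 0.587 (permutation p = 0.0506, adjusted p = 0.0843), and r was 0.384 without the 2 mice. It was 0.192 within EtOH mice and 0.654 within Control mice, and 0.448 and 0.534 on chips 1 and 2. *Ly6g6e* had r = 0.506 (permutation p = 0.0892, adjusted p = 0.149) and rho = 0.545 (permutation p = 0.0717, adjusted p = 0.0896), and r was 0.550 without the 2 mice. It was 0.520 within EtOH mice and 0.568 within Control mice, and 0.706 and 0.513 on chips 1 and 2. *Nts* had r = 0.321 (permutation p = 0.407) and rho = 0.0559 (permutation p = 0.875), and r was −0.173 without the 2 mice. Chip 1 gave −0.360 and chip 2 gave 0.775, and r was 0.321 within EtOH mice and 0.328 within Control mice. Among the subiculum genes themselves, *Cntn6* and *Fn1* had r = 0.634, *Ly6g6e* and *Fn1* 0.562, and *Ly6g6e* and *Cntn6* 0.445, while *Nts* had −0.306 with *Fn1*, −0.0295 with *Cntn6* and −0.0886 with *Ly6g6e*.

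**Figure D3:**
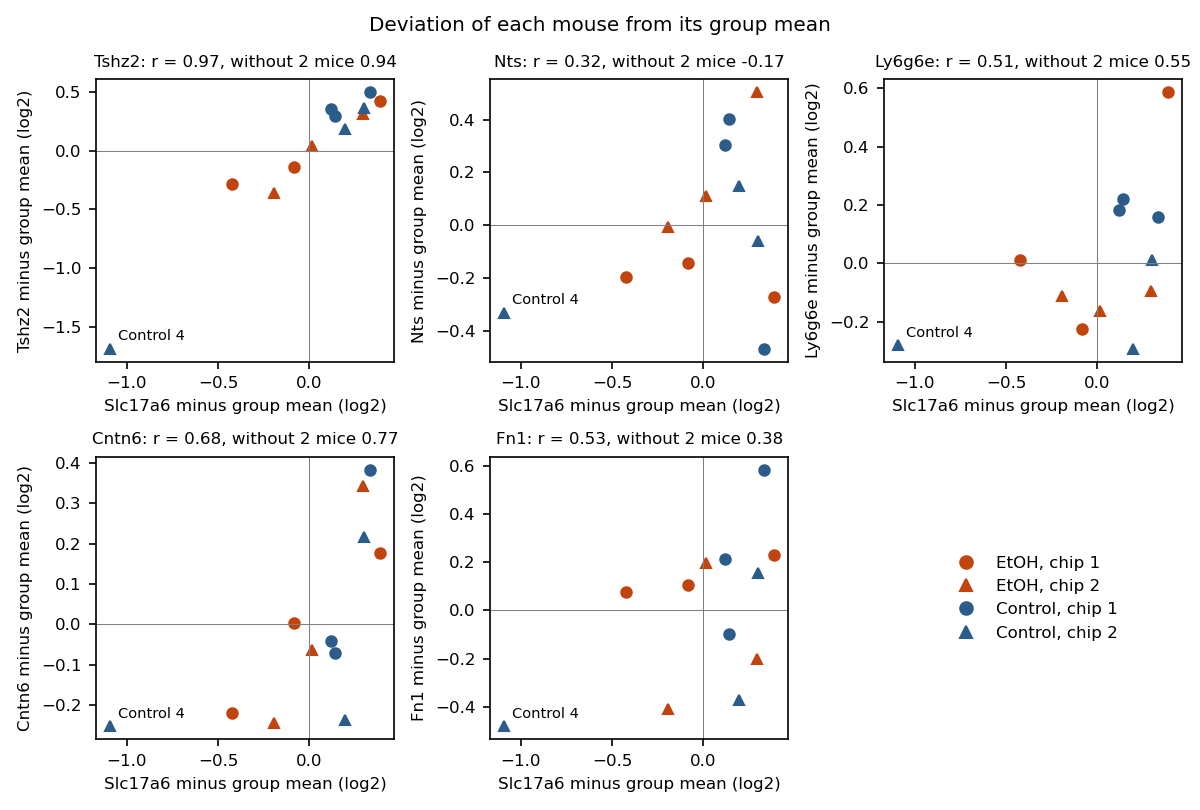
Deviation of each mouse from its group mean on the log2 scale, for *Slc17a6* on the horizontal axis and each of 5 genes on the vertical axis, with EtOH mice in red, Control mice in blue, circles for chip 1 and triangles for chip 2. *Tshz2* follows *Slc17a6* along 1 line (r = 0.97, and 0.94 without Control replicate 4 and EtOH replicate 1), while *Nts* does not (r = 0.32 and −0.17).

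The 2 EtOH mice with the most *Slc17a6*, replicates 2 and 6, also held the 2 highest places of all 12 mice for *Tshz2* and for *Cntn6*. Replicate 2 was highest of all for *Ly6g6e* and replicate 6 for *Nts*. The 2 mice were not high for every gene. Replicate 2 was the lowest EtOH mouse for *Nts* (6.47). For *Fn1* replicate 2 was the highest EtOH mouse (7.42), but replicate 6 was the second lowest (6.99). At the other end, Control replicate 4 was the lowest of 12 mice for *Slc17a6*, *Tshz2*, *Cntn6* and *Fn1*, and the second lowest for *Nts* and *Ly6g6e*.

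Over all genes the correlation with *Slc17a6* had a median of 0.0018, and the middle 95% of genes lay between −0.569 and 0.593. Of 10834 genes, 29 reached r = 0.8 and 6 lay at −0.8 or below. After *Tshz2* (0.973), the genes most like *Slc17a6* were *Vwc2l*, which encodes a secreted protein (0.911), the metallopeptidase gene *Amz1* (0.910), the sulfotransferase gene *Chst5* (0.896), *Tshz3*, a second teashirt transcription factor (0.895), *4933439C10Rik* (0.888), *Grm8*, a presynaptic metabotropic glutamate receptor (0.886), the small GTPase gene *Ralb* (0.860), *Gsg1l*, an AMPA receptor subunit partner (0.858), and *Zadh2* (0.857). The 5 genes with the lowest r were *Hsd17b7*, *Smc2*, *Crem*, *Tent5a* and *Unc5b* (−0.844 to −0.812). This ranking depended on Control replicate 4. Without it *Vwc2l*, *Amz1* and *Tshz3* had r = 0.763, 0.689 and 0.749, and *Tshz2* was the only gene shared by the 10 highest with and without that mouse.

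**Figure D4:**
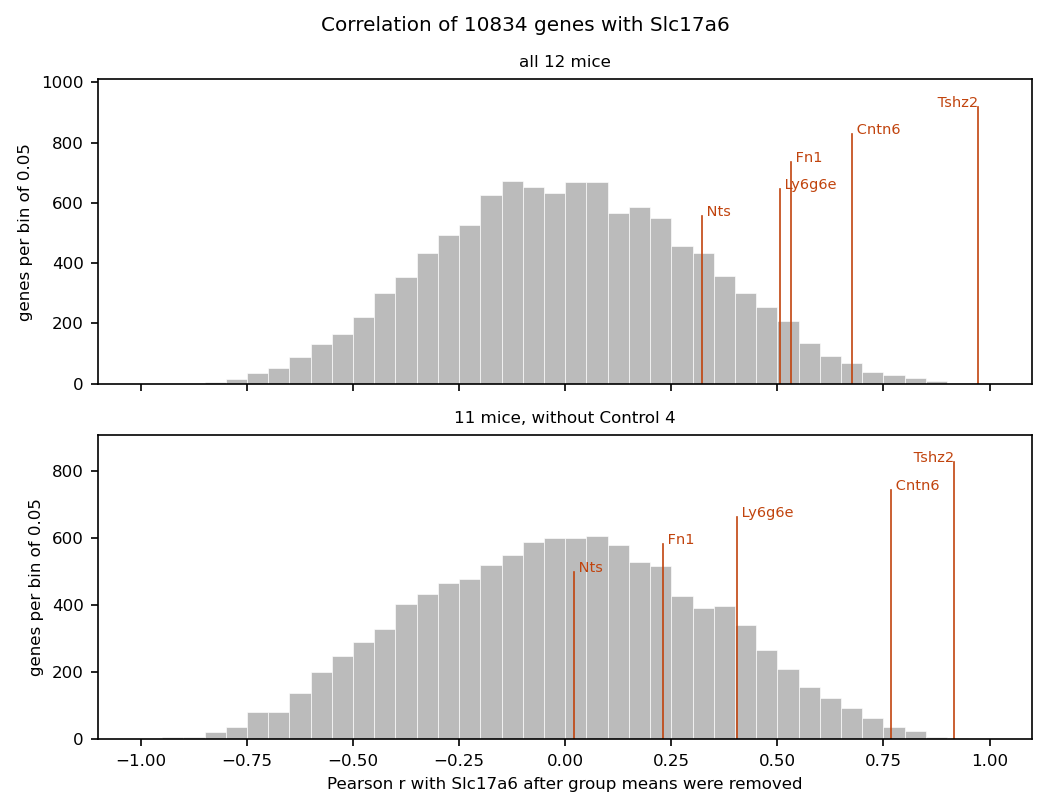
Number of genes in bins of 0.05 of their Pearson r with *Slc17a6* after group means were removed, over all 12 mice (top) and over 11 mice without Control replicate 4 (bottom), with 5 genes marked by lines. *Tshz2* lies at the upper end in both (0.973 and 0.917), *Cntn6* beyond most genes (0.676 and 0.768), and *Nts* within the bulk (0.321 and 0.022).

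Among relatives and partners of these genes, *Tshz3* and *Cntn4* alone passed an unadjusted p of 0.05, and none passed an adjusted p of 0.05. Of the *Slc17a6* family, 3 of 8 genes were tested and 0 passed an unadjusted p of 0.05 in limma. *Slc17a7*, encoding VGLUT1, was 12.48 ± 0.12 in EtOH mice and 12.53 ± 0.08 in Control mice (SD, n = 6 each), a log2 fold change of −0.06 (standard error 0.07). *Slc17a8*, encoding VGLUT3, was at 0.05 (standard error 0.15) and *Slc17a5*, encoding a lysosomal sialic acid transporter, at 0.02 (standard error 0.11). Against *Slc17a6* across the mice, *Slc17a7* had r = −0.083 and *Slc17a8* −0.652, and −0.177 and −0.304 without Control replicate 4.

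Of the other teashirt genes, *Tshz3* was 9.94 ± 0.26 in EtOH mice and 9.40 ± 0.51 in Control mice (SD, n = 6 each), higher by 0.55 on the log2 scale (standard error 0.20, adjusted p = 0.720 in limma, 0.0171 before adjustment). Control replicate 4 was again lowest, at 8.53, and the log2 fold change was 0.37 without it. *Tshz1* stood at −0.17 (standard error 0.11).

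The receptors of neurotensin, *Ntsr1* (0.12, standard error 0.15), *Ntsr2* (−0.10, standard error 0.08) and the sorting receptor *Sort1* (0.00, standard error 0.09), gave 0 of 3 genes past an unadjusted p of 0.05. Of 8 relaxin family ligands and receptors 3 were tested, with log2 fold changes of −0.17 (*Insl6*), −0.11 (*Rln1*) and 0.15 (*Rxfp3*) and 0 past that p. Of 9 other contactins and contactin partners 1 passed, *Cntn4*, at 0.40 (standard error 0.18, adjusted p = 0.759 in limma, 0.0452 before adjustment). *Cntn4* was detected in 7 of 12 mice, and it missed that unadjusted p in 9 of the 12 fits that each left out 1 mouse, all but those without EtOH replicates 4 and 6 and Control replicate 2. *Cntn1* and *Cntn3* had log2 fold changes of 0.11 and 0.17. Of 9 fibronectin receptor subunits 4 were tested and 0 passed, with *Itgb5* at −0.18, *Itgb1* at −0.13 and *Itgav* at −0.05. Of 11 genes of the Ly6 family 6 were tested and 0 passed, with *Psca* at 0.27, *Lypd1* at 0.09 and *Lypd6* at 0.09. Over all genes tested, 411 of 10835 were higher and 294 lower at the same unadjusted p.

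Genes of regions and cell types around the subiculum were followed in the same way. None of them passed an adjusted p of 0.05 in limma. Of 4 other subiculum genes tested, 0 passed an unadjusted p of 0.05. *Rprm* was at 0.16 (standard error 0.09), *Ntng2* 0.25 (standard error 0.21) and *Lypd1* 0.09. The median of the list was 0.12, against 0.01 over all genes. The summed signal of the list was 6144 to 7357 units in EtOH mice and 6086 to 7327 units in Control mice, with Control replicate 4 at the lowest value. Over the mice their r with *Slc17a6* had a median of 0.311, and of −0.118 without Control replicate 4.

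Of 9 tested markers of neocortex and retrosplenial cortex, 2 were higher and 1 lower at an unadjusted p of 0.05, against 411 higher and 294 lower among all 10835 genes. *Ddit4l* was 9.59 ± 0.26 in EtOH mice and 9.25 ± 0.14 in Control mice (SD, n = 6 each), a difference of 0.34 (standard error 0.11, adjusted p = 0.720 in limma, 0.0110 before adjustment). *Tbr1*, a transcription factor of glutamatergic cortical neurons, had a value of 0.27 (standard error 0.12, adjusted p = 0.759 in limma, 0.0375 before adjustment), and *Rasgrf2*, detected in 6 of 12 mice, −0.31 (standard error 0.13, adjusted p = 0.753 in limma, 0.0331 before adjustment). *Tbr1* missed that unadjusted p without EtOH replicate 1, 2 or 4 or Control replicate 1 or 4, and *Rasgrf2* without EtOH replicate 3 or 6 or Control replicate 1 or 4. The median of the list was 0.14. Its summed signal was 5378 to 7326 units in EtOH mice and 5060 to 6109 units in Control mice, and the lowest was Control replicate 4. Of the 9 genes, 6 had a positive r with *Slc17a6*, highest for *Lamp5* (0.799), *Scnn1a* (0.712), *Ccn2* (0.696) and *Cux2* (0.655), with a median of 0.467. The negative ones were *Cxcl14* (−0.392), *Rasgrf2* (−0.319) and *Rorb* (−0.276). Without Control replicate 4, 8 of 9 were positive and the median was 0.580. Other lists also had mostly positive r without that mouse, with 7 of 8 interneuron genes (median 0.299) and 5 of 7 endothelial genes (median 0.342). *Foxp2* and *Cplx3* were detected in 0 mice. The part of these cortical genes in the result for *Slc17a6* and *Tshz2* was not tested.

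Markers of the CA2 and CA3 fields mostly had a negative r with *Slc17a6* across the mice, and those of CA1 did so only with Control replicate 4 included. Of 5 tested genes of CA2 and CA3 pyramidal neurons 0 passed an unadjusted p of 0.05 between groups, with *Bok* at −0.23, *Rgs14* at 0.15 and *Grik4* at −0.10. Their r with *Slc17a6* had a median of −0.512 over 12 mice and −0.509 without Control replicate 4. Of 6 tested genes of CA1 pyramidal neurons 0 passed, with *Wfs1* at 0.20, *Pou3f1* at 0.12 and *Spink8* at 0.08. *Fibcd1* (−0.767) and *Spink8* (−0.728) had the most negative r with *Slc17a6*, and *Wfs1* had 0.073. The median of the list was −0.340 over 12 mice but 0.048 without Control replicate 4. That mouse had the highest summed signal of both lists among all 12 mice, at 21594 units for CA1 and 5386 units for CA2 and CA3. The EtOH mice reached at most 18004 and 5031 units. These sums are weighted to the brightest genes, and not every gene was highest in Control replicate 4. *Fibcd1*, *Spink8*, *Mpped1*, *Bok* and *Rgs14* were, while *Wfs1*, *Pou3f1*, *Man1a*, *Iyd*, *Amigo2* and *Grik4* were not. *Grik4* lay at 7.33 in that mouse, below the other Control mice, which started at 7.46. Of the 4 tested dentate granule neuron genes 0 passed, with *C1ql2* at 0.13, *Lct* at 0.12 and *Prox1* at −0.10. The median r with *Slc17a6* was 0.028, and −0.506 without Control replicate 4.

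**Figure D5:**
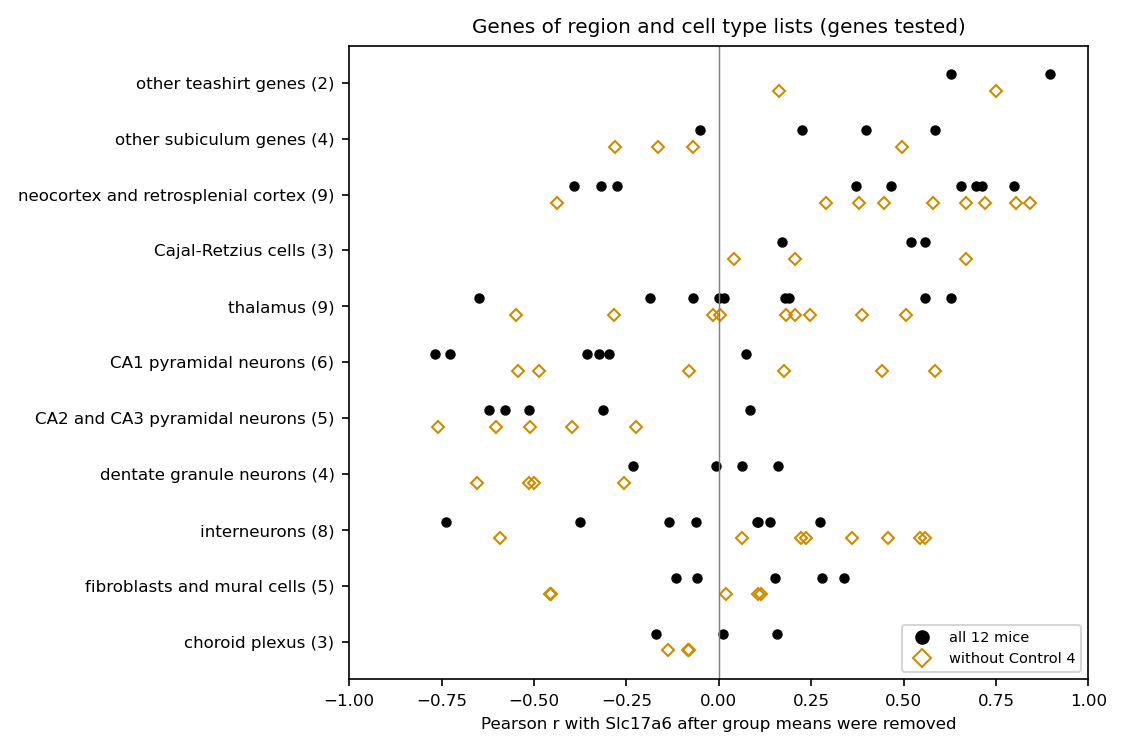
Pearson r with *Slc17a6* of each tested gene in 11 lists of region and cell type markers, after group means were removed, over all 12 mice (filled circles) and over 11 mice without Control replicate 4 (open diamonds). The lists of neocortex and retrosplenial cortex (medians 0.467 and 0.580) and of CA2 and CA3 pyramidal neurons (medians −0.512 and −0.509) lie on opposite sides of 0 in both, while that of CA1 moves across it (−0.340 and 0.048).

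Thalamus and habenula are regions known for VGLUT2. Of 9 tested thalamus genes 0 passed an unadjusted p of 0.05 between groups, with *Ntng1* at 0.23, *Rgs16* at 0.18 and *Zic1* at −0.30. The median r of the thalamus list with *Slc17a6* was 0.015, and 0.181 without Control replicate 4. Over its genes r ran from −0.648 for *Prkcd* to 0.627 for *Rgs16*, which had −0.549 and 0.246 without that mouse. *Tcf7l2*, a regulator of thalamic neurons, had 0.191 with that mouse and 0.506 without it. *Gbx2* and *Synpo2* were detected in 0 mice. The summed signal was 4226 to 5227 units in EtOH mice and 3554 to 6920 units in Control mice. Of 5 tested habenula genes 1 passed, the tachykinin gene *Tac2*, at 6.01 ± 0.35 in EtOH mice and 5.52 ± 0.21 in Control mice (SD, n = 6 each). Its log2 fold change was 0.49 (standard error 0.15, adjusted p = 0.718 in limma, 0.00566 before adjustment), and the habenula regulator *Pou4f1* was detected in 0 mice. The r of *Tac2* with *Slc17a6* was 0.038 over 12 mice and 0.691 without Control replicate 4, and it was 0.736 within EtOH mice and −0.588 within Control mice. The median r of the habenula list was 0.038, and 0.283 without that mouse. *Htr5b* had a value of −0.21 and *Nwd2* of 0.08. Of the Cajal-Retzius list, *Trp73*, *Lhx1* and *Lhx5* were detected in 0 mice, and 3 of 6 genes were tested with 0 past that p. *Ndnf* had a value of −0.20, *Reln* of 0.06 and *Calb2* of −0.02. For *Reln* and *Calb2* the r with *Slc17a6* was 0.520 and 0.557, or 0.670 and 0.206 without Control replicate 4.

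Other cell types of the dissected tissue gave 0 genes past an unadjusted p of 0.05. Of 8 interneuron genes the median log2 fold change was 0.09, with *Gad1* at 0.17, *Gad2* at 0.12 and *Pvalb* at 0.12. Of 7 endothelial genes *Cldn5* stood at 0.33 (standard error 0.17), *Tek* at 0.16 and *Slco1a4* at −0.04. *Fn1* is made by fibroblasts and vessels, and of the 5 tested fibroblast and mural cell genes *Col1a2* stood at −0.20, *Dcn* at 0.10 and *Pdgfrb* at −0.06. Their r with *Fn1* had a median of 0.368, from 0.008 for *Col1a2* and 0.101 for *Pdgfrb* to 0.639 for *Lum* and 0.659 for *Vtn*. The teashirt gene *Tshz1* had a higher r with *Fn1* (0.694) than any of these 5. *Col3a1* was detected in 0 mice and *Col1a1* in 5. The 5 genes most like *Fn1*, chosen after their values were seen, were *Mgp* (0.936), *Cul7* (0.928), *Slc13a4* (0.910), *Msi2* (0.906) and *Aebp1* (0.903).

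Choroid plexus, the epithelium of the adjoining ventricle, had markers of very wide spread. *Ttr*, the transthyretin gene, was 10.27 ± 2.70 in EtOH mice and 12.17 ± 2.72 in Control mice (SD, n = 6 each), a log2 fold change of −1.90 (standard error 1.31). *Clic6* had −1.12 (standard error 1.02) and *Kl* −0.57 (standard error 0.43). Both changed sign between the chips, with −3.22 on chip 1 and 0.98 on chip 2 for *Clic6*, and −1.33 and 0.20 for *Kl*, while *Ttr* had −3.45 and −0.35. Without Control replicate 1, *Clic6* had −0.39 and *Kl* −0.15. In all, 0 of the 3 tested genes passed an unadjusted p of 0.05. The summed signal of the list was 421 to 26382 units in EtOH mice and 673 to 41633 units in Control mice. Its genes had an r of −0.170 to 0.158 with *Slc17a6*, and a median r of 0.563 with *Fn1*. The part of choroid plexus in the spread of *Fn1* was not tested.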

How the data were processed

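Total RNA of 12 hippocampi was hybridised to Illumina MouseWG-6 v2.0 arrays by the authors, who read them with GenomeStudio 1.9.0 per the labels. The authors deposited the non-normalized signal of each probe with a detection p-value, and a table of quantile normalized signal that differed by at most 0.947% from quantile normalization of the deposited signal. Each deposited intensity is the mean brightness of the beads of a probe. Precision is limited by having 6 mice in each group.

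Signals were corrected by normexp against the background inferred from the detection p-values (offset 16), quantile normalized and taken to log2 with limma 3.58.1 in R 4.3.3. Probes detected at p under 0.05 on at least 6 of the 12 arrays were kept. Groups were compared by limma on group alone, and p-values were adjusted by Benjamini-Hochberg over all of the probes kept. Chip was tested with group in the model, and the interaction of both in a further fit. Each gene was represented by its brightest probe. Values were deviations from group means in the correlations, whose p-values came from 100000 two-sided permutations within groups, adjusted over 5 relations. Scripts were tested on simulated data.

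Probes were named from the platform annotation, in which 34885 probes have 1 symbol, 18 several and 10378 none. Promoter windows were matched by symbol for 4 of the 7 genes. Signals of different probes were not compared with each other. A list's summed signal is the sum of linear normalized signals of its tested genes in a mouse. The genes and the gene lists were chosen with earlier results of these data known. Named genes were all probes of the 7 genes, the 10 genes with the highest and the 5 with the lowest r with *Slc17a6*, and from each list the 3 genes with the smallest unadjusted p between groups and any at 0.05 or less. Genes named for their r with *Slc17a6* or *Fn1*, for their level in Control replicate 4 or for being detected in 0 mice were chosen after their values were seen. So was the repeat of the list correlations without Control replicate 4.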

Additional observations from a re-analysis of the deposited data

Results flagged for a closer look

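Of 20 sets of 6 mice, 1 for each probe and group, 6 held a mouse far from the rest by Dixon's test (a gap over 0.625 of the range). Chance alone is set to mark about 1 in 20 such sets, and probes of 1 gene are not independent. Control replicate 4 was the low mouse in 5 of the 6. It lay at 9.43 at ILMN_2922321 and 9.38 at ILMN_2773047 of *Slc17a6*, where the next Control mice lay at 10.64 and 10.31. For *Tshz2* it lay at 7.08 at ILMN_1256408, 7.09 at ILMN_1243934 and 6.87 at ILMN_1256722, where the next Control mice lay at 8.95, 8.44 and 8.28. The sixth was EtOH replicate 2, which was high for *Ly6g6e* at ILMN_2991389 (8.88, with the next EtOH mouse at 8.30).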

How the results depend on the processing

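The log2 fold changes of the 10 probes moved by less than the SD between mice under each normalization, the chip block, the replicate block, either chip alone and each mouse left out. Control replicate 4 raised this SD for *Slc17a6* and *Tshz2*, so the rule is lenient there. At ILMN_1256722 of *Tshz2* the log2 fold change was 0.52 over all 12 mice and 0.05 on chip 1 alone. Over the 12 mice left out in turn, it ran between 0.45 and 0.76 for *Slc17a6* at ILMN_2922321 and between 0.38 and 0.82 for *Tshz2* at ILMN_1256408. Median scaling gave 147 higher probes at an unadjusted p of 0.05, no filter on dim probes gave 1300 higher and 1177 lower, and chip 2 alone gave 428 higher. No setting gave a probe past an adjusted p of 0.05 between groups. Among list genes, 5 were higher and 1 lower at that unadjusted p, where 411 of all 10835 genes tested were higher and 294 lower. The list counts were not tested against these. They came to 3 higher with median scaling, 2 higher on chip 2 alone and 4 lower on chip 1 alone. With 1 mouse left out, 3 to 6 list genes were higher and 0 to 3 lower. *Cntn4* lost its unadjusted p of 0.05 in 9 of these 12 analyses, *Tbr1* in 5 and *Rasgrf2* in 4, and *Tshz3*, *Ddit4l* and *Tac2* in 0. Deviations of same-numbered mice of the 2 groups correlated at −0.018 to 0.210, not over 0.1 in every pair, so the numbers were not taken to pair the mice. The replicate block gave 6 higher and 2 lower list genes, and a standard error of 0.17 in place of 0.22 for *Slc17a6* at ILMN_2922321. The chip difference was called at 3826 probes with median scaling, 226 with no background correction and 25 (without EtOH replicate 6) to 167 (without Control replicate 1) with 1 mouse left out, and the interaction at 0 to 4, the 4 without Control replicate 2. The r of *Cntn6* with *Slc17a6* was 0.590 with median scaling (adjusted permutation p = 0.138) and 0.640 with chip means also removed (adjusted permutation p = 0.117), neither past the threshold, and 0.638 to 0.785 with 1 mouse left out. Without removal of group means *Ly6g6e* passed, at r = 0.715 (adjusted permutation p = 0.0344). The r of *Tshz2* passed the threshold in every setting. This r is not independent of how *Slc17a6* and *Tshz2* were chosen on these same arrays, so passing is no separate support for their relation. The causes of these changes were not tested. The brightness over background limits *Rxfp1* and the other probes that did not pass the filter.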
